A study of Mus musculus with 31 samples.

Results

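The piRNA and de novo methylation genes described here are Piwil2, Piwil4, Mov10l1, Asz1, Gtsf1, Mael, Tdrd1, Tdrd5, Tdrd9 and Dnmt3l. These 10 genes were taken by name from the 18193 genes with a probe set of their own, and each is represented by its brightest probe set. Of the 10, 9 passed the filter on low signals that left 11785 genes to test, and Dnmt3l did not. Signals came from 31 arrays, each hybridised with RNA of 1 pair of gonads taken from a mouse fetus at E14.5 and parted from the mesonephros. Every fetus carried Sf1-cre+/Tg, a Cre driven by Sf1 sequences, which are known to work in gonadal somatic cells and not in germ cells, where most of these genes are expressed. Controls (Ctr) were Ctnnb1+/f and Sox9+/f, and thus also carried 1 floxed copy of each target with Cre. Ctnnb1KO gonads were Ctnnb1f/f and Sox9+/f, Sox9KO gonads Ctnnb1+/f and Sox9f/f, and DKO gonads Ctnnb1f/f and Sox9f/f. Ctnnb1 encodes beta-catenin, the WNT effector of ovarian somatic cells, and Sox9 encodes the factor that directs Sertoli cell differentiation. XX and XY gonads of each genotype gave 8 groups of 4 arrays, except XY DKO with 3.

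PIWI-interacting RNAs, or piRNAs, are small RNAs that guide PIWI proteins to transposon transcripts. In the fetal testis, germ cells that have stopped dividing, called prospermatogonia, use this pathway to silence transposons while their genome is methylated afresh. Piwil2 (MILI) cuts transposon RNA in the cytoplasm, Piwil4 (MIWI2) enters the nucleus loaded with piRNAs, and Dnmt3l is the cofactor through which Dnmt3a and related enzymes methylate the DNA. Female germ cells at the same stage enter meiosis, and their genome is methylated only after birth in growing oocytes.

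Loss of Sox9 and the sex of the gonads were checked first, while the Ctnnb1 signal was not examined and its loss rests on the labels. Sox9 had a mean signal of 929.1 ± 94.5 (SD, n = 4) in XY Ctr, 23.0 ± 16.7 (SD, n = 4) in XY Sox9KO and 26.0 ± 15 (SD, n = 3) in XY DKO. The Y-linked gene Eif2s3y separated all XX from all XY arrays, but the library labelled XX Ctnnb1KO replicate 4 had an Xist signal of 51.1, in the range of the XY arrays. It was kept in its labelled group. The Tdrd1 call in XX Ctnnb1KO is also given without it, while other XX Ctnnb1KO signals, means and marker counts include it. The germ cell markers Ddx4 and Dazl were present on every array, Ddx4 at 976 or more and Dazl at 1952.2 or more. Both had lower means in XY Ctr (Ddx4 1515.3, Dazl 3167.1) than in XX Ctr (2090 and 4661.2) and XY Sox9KO (2104.8 and 5277.9), and values relative to these markers are given below. A whole gonad was measured, so fewer germ cells and less RNA per germ cell cannot be told apart.

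**Figure D1:**
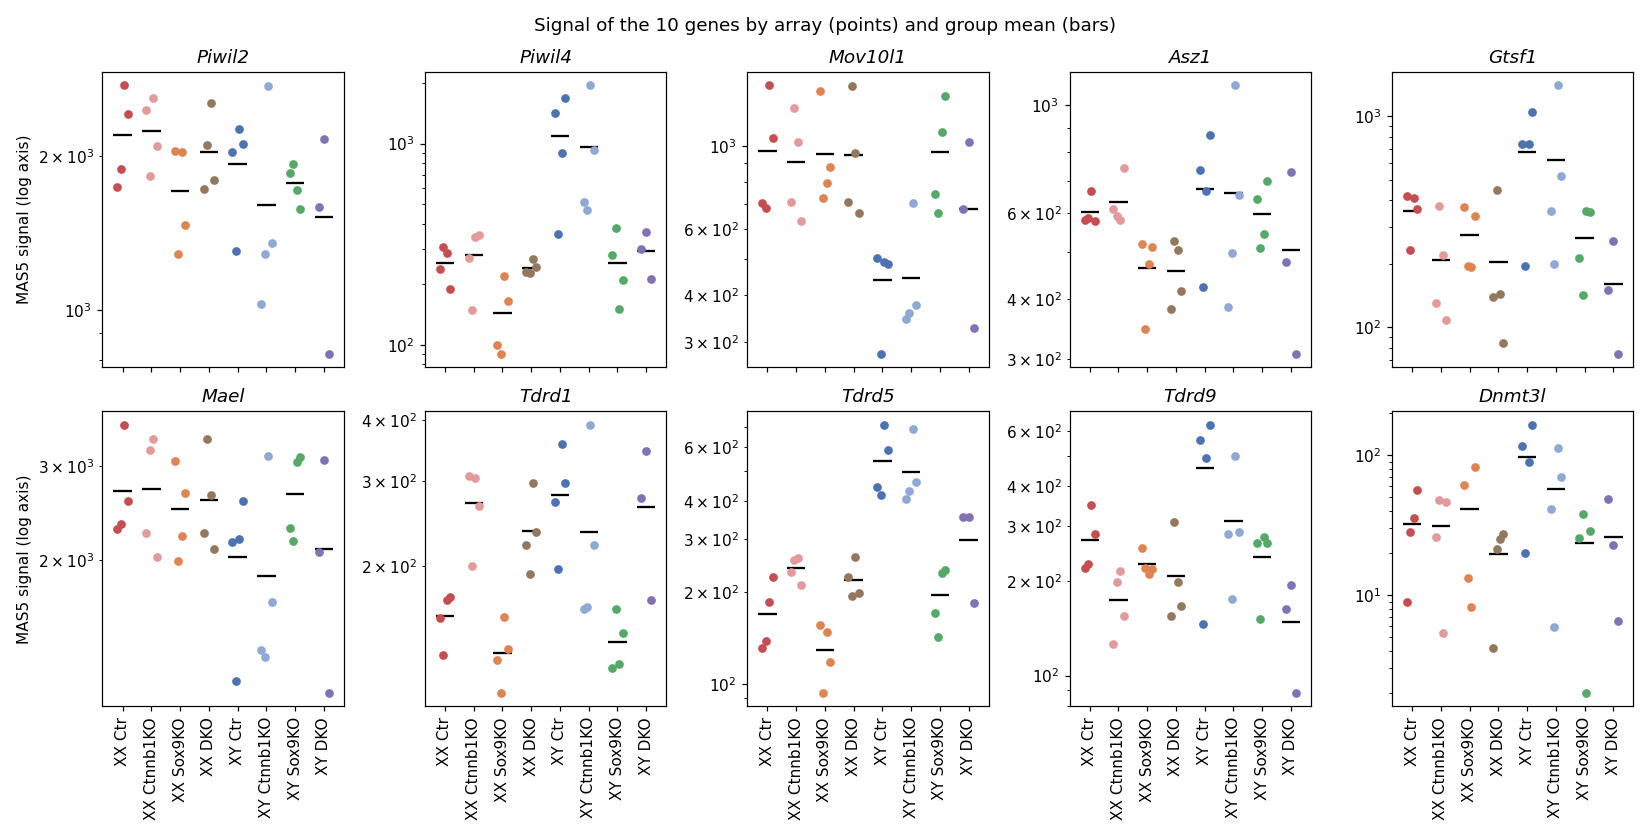
Signal of the 10 genes (y axis, linear MAS5 signal drawn on a log axis) on each array (points) of the 8 groups (x axis), with group means as bars. Piwil4 and Tdrd5 are highest in the XY Ctr and XY Ctnnb1KO columns, Mov10l1 is low in those columns, and Tdrd1 is also raised in XX Ctnnb1KO, where its mean is 269.5 against 157.6 in XX Ctr.

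The first comparison asks how the control testis differs from the control ovary. Piwil4, Tdrd1 and Tdrd5 were higher in XY Ctr than in XX Ctr and Mov10l1, the RNA helicase that hands piRNA precursors to processing, was lower. These 4 of 9 genes tested stand beside 37.8% of all 11785 genes called in this comparison (18% higher and 19.8% lower). The median difference of the 9 genes was 0.58 on the log2 scale against -0.02 for all genes tested. Somatic markers separate these gonads too, with 8 of 8 Sertoli and 5 of 5 fetal Leydig markers higher and 7 of 7 pregranulosa markers lower in XY Ctr, and their part in these values was not tested.

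Among the PIWI proteins, Piwil4 had signals of 238.4, 304.7, 286.8 and 189.5 in XX Ctr and of 1414.7, 357.4, 896.1 and 1677.4 in XY Ctr. Every XY Ctr array lay above every XX Ctr array, although replicate 2 of XY Ctr was only just above. The log2 difference was 1.84 ± 0.39 (SE), or 3.57-fold, with an adjusted p of 0.000335 from limma. Without XY Ctr replicate 2 it was 2.29. This value rests on a probe set with the suffix _x_at, which marks probes that can also match other transcripts. The other Piwil4 probe set was dim, with group means from 31.1 to 70.9, and gave a difference of 0.43 ± 0.38 (SE), while the mean of both gave 1.13 (adjusted p = 0.00856). Piwil2, by contrast, had group means of 2195.1 ± 467.7 in XX Ctr and 1925.5 ± 425.8 in XY Ctr (SD, n = 4 each) with overlapping arrays. Its difference was -0.19, with a 95% confidence interval from -0.70 to 0.31.

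Of the Tudor domain proteins, which bind methylated PIWI proteins in the germ granules where piRNAs are made, Tdrd5 differed by the smallest p. Its signals were 131.2, 139, 185.8 and 224.9 in XX Ctr and 443.8, 417.2, 710.3 and 588 in XY Ctr. The lowest XY array was thus well above the highest XX array, and the log2 difference was 1.58 ± 0.21 (SE, adjusted p = 4.22e-07), or 2.98-fold. Tdrd1, the binding partner of MILI, had signals of 156, 131.4, 170.3 and 172.5 in XX Ctr and of 271.9, 197, 357.4 and 296.3 in XY Ctr. These arrays did not overlap either, and the difference was smaller, 0.75 ± 0.22 (SE, adjusted p = 0.00685), or 1.68-fold. Tdrd9, a helicase that works with MIWI2, was at 561.2, 494.6 and 629.6 on 3 XY Ctr arrays but at 146.1 on replicate 2, below all 4 XX Ctr arrays (219.4 to 349.7). Its difference of 0.58 ± 0.32 (SE, adjusted p = 0.16) was not called, and Tdrd9 was called when XY Ctr replicate 2 was left out, which made 5 genes called in place of 4.

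Mov10l1 ran the other way. Its signals were 703.7, 683.3, 1449.1 and 1047.6 in XX Ctr and 501.6, 279.8, 489.9 and 484.3 in XY Ctr, again without overlap. The log2 difference was -1.08 ± 0.32 (SE, adjusted p = 0.00701), a 2.12-fold lower level in XY Ctr. The call was lost relative to Ddx4 and Dazl (-0.60, adjusted p = 0.0524) and relative to 12 pan-germ cell genes (-0.81, adjusted p = 0.123). Other members act around the PIWI proteins: Asz1 holds piRNA processing at mitochondria, Gtsf1 helps PIWI proteins to silence, and Mael takes part in transposon silencing downstream of them. None of them was called. The differences were 0.11 for Asz1 (95% confidence interval -0.37 to 0.59), 0.72 for Gtsf1 (-0.32 to 1.75) and -0.44 for Mael (-0.99 to 0.11). The wide interval of Gtsf1 goes with XY Ctr arrays at 740.5, 195.9, 736.1 and 1042.8.

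The 250 bases before the start of the 4 genes that differed between the control gonads are shown because the genes moved in opposite directions. They are from RefSeq on build GRCm38.p6, given 5′ to 3′ on the gene's own strand, at chr9:14740673-14740922 (minus strand) for Piwil4, chr19:56825959-56826208 (plus) for Tdrd1, chr1:156303349-156303598 (minus) for Tdrd5 and chr15:88982744-88982993 (plus) for Mov10l1. Capitals mark the E-box CACGTG, a motif that is its own reverse complement and is known to be bound by basic helix-loop-helix factors such as MAX.
Piwil4: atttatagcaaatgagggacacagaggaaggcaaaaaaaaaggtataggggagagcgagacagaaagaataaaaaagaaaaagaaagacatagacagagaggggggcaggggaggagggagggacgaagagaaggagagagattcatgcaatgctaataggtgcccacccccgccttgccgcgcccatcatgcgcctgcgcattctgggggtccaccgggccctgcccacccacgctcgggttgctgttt
Tdrd1: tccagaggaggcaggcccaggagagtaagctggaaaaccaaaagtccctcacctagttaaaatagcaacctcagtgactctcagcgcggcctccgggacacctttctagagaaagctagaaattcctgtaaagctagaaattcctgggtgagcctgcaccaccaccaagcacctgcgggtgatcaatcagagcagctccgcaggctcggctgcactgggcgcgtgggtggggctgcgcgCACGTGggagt
Tdrd5: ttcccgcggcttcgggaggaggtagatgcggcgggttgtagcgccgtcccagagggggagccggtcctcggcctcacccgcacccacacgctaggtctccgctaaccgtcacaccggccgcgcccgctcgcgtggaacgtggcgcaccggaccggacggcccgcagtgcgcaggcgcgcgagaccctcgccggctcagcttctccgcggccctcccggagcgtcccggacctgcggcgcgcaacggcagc
Mov10l1: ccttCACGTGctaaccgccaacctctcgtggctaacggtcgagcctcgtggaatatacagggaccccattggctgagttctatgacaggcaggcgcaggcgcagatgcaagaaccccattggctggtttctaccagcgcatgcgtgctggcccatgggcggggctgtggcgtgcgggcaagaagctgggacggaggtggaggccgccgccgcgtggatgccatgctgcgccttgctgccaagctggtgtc

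Tdrd1, higher in XY Ctr, and Mov10l1, lower there, both held an E-box, which began 11 bases before the start of Tdrd1 and 246 bases before that of Mov10l1. Neither Piwil4 nor Tdrd5 held one in this stretch. RefSeq windows of 300 bases, from 250 before to 50 after a start, were at hand for 9 of the 10 genes, and where a gene had several the most 5′ one was read. The E-box was in 4 of these 9 windows, those of Tdrd1, Tdrd9 (165 and 95 bases before the start), Mov10l1 and Mael (223). All 32851 windows, which include every window of a gene, held it in 7.15%. Counted that way, 6 of 14 windows of the set held it, with 1 Tdrd1 site in overlapping windows and 1 site in another Dnmt3l window (44). The motif contains a CG, and windows were not matched for CG content. The motif GGCGGGA, searched on both strands as the kind of site E2F factors bind, was in 1, that of Mael, against 11.3% of all windows. It does not overlap the E-box there. Windows also differed in CG dinucleotides, the bases that DNA methylation acts on: Tdrd5 had 48, Tdrd1 and Mov10l1 20 each and Piwil4 11, and the median of all windows was 7.

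The next comparison asks what loss of Sox9 in somatic cells did in XY gonads. Relative to XY Ctr, 3 of 9 genes fell in XY Sox9KO (Piwil4, Tdrd1 and Tdrd5) and Mov10l1 rose, where 38.7% of all genes were called (16% lower and 22.7% higher). This comparison and the preceding one share the XY Ctr arrays, so values of opposite sign are not independent of each other. The median of the 9 genes was -0.75 against 0.05 for all genes tested.

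Piwil4 had signals of 278.1, 381.3, 150.5 and 210.1 in XY Sox9KO, and the highest of them exceeded only XY Ctr replicate 2. It fell by 1.89 ± 0.39 (SE) on the log2 scale (adjusted p = 0.000253). The dim Piwil4 probe set gave -0.28 ± 0.38 (SE) here, and the mean of both gave -1.09 (adjusted p = 0.0118). Tdrd5 stood at 171.8, 142.5, 231.1 and 237.3, below every XY Ctr array, and fell by 1.39 ± 0.21 (SE, adjusted p = 3.56e-06). Tdrd1 stood at 123.3, 163.2, 125.4 and 145.5, also below every XY Ctr array, and fell by 0.91 ± 0.22 (SE, adjusted p = 0.00132). Mov10l1 was at 742.5, 662.7, 1091.6 and 1357.8, above every XY Ctr array, and rose by 1.08 ± 0.32 (SE, adjusted p = 0.00727). As between the controls, that call was lost relative to Ddx4 and Dazl (0.48, adjusted p = 0.0995) and to the pan-germ cell genes (0.81, adjusted p = 0.137).

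Tdrd9 (-0.75 ± 0.32, adjusted p = 0.0637) and Gtsf1 (-1.18 ± 0.51, adjusted p = 0.0656) missed the threshold, both errors being SE. Leaving out XY Ctr replicate 2, in which both were low, made them pass and brought the count to 6 genes. Piwil2 (-0.10, 95% confidence interval -0.60 to 0.41), Asz1 (-0.13, -0.61 to 0.35) and Mael (0.43, -0.12 to 0.98) were not called. Against XX Ctr, 0 of 9 genes were called in XY Sox9KO by limma, and 0 had an unadjusted p under 0.05. Only 0.628% of all genes were called there. The differences from XX Ctr ran from -0.46 for Gtsf1 (95% confidence interval -1.49 to 0.57) to 0.19 for Tdrd5 (-0.24 to 0.62). Changes of the size seen between the controls are outside the interval for Tdrd5, Piwil4 (-0.05, -0.84 to 0.74), Tdrd1 (-0.16, -0.61 to 0.29) and Mov10l1 (0, -0.65 to 0.65). For Piwil4 this holds for the brighter probe set, and the dim one gave 0.14 ± 0.38 (SE). Somatic markers moved with these genes: 8 of 8 Sertoli markers fell in XY Sox9KO, to a mean log2 signal of 6.73 to 7.04 per array against 10.43 to 10.63 in XY Ctr, and 7 of 7 pregranulosa markers rose. The 5 fetal Leydig markers fell as well, to 7.12 to 7.46 against 12.58 to 12.75. Their part in the values of the piRNA genes was not tested.

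**Figure D2:**
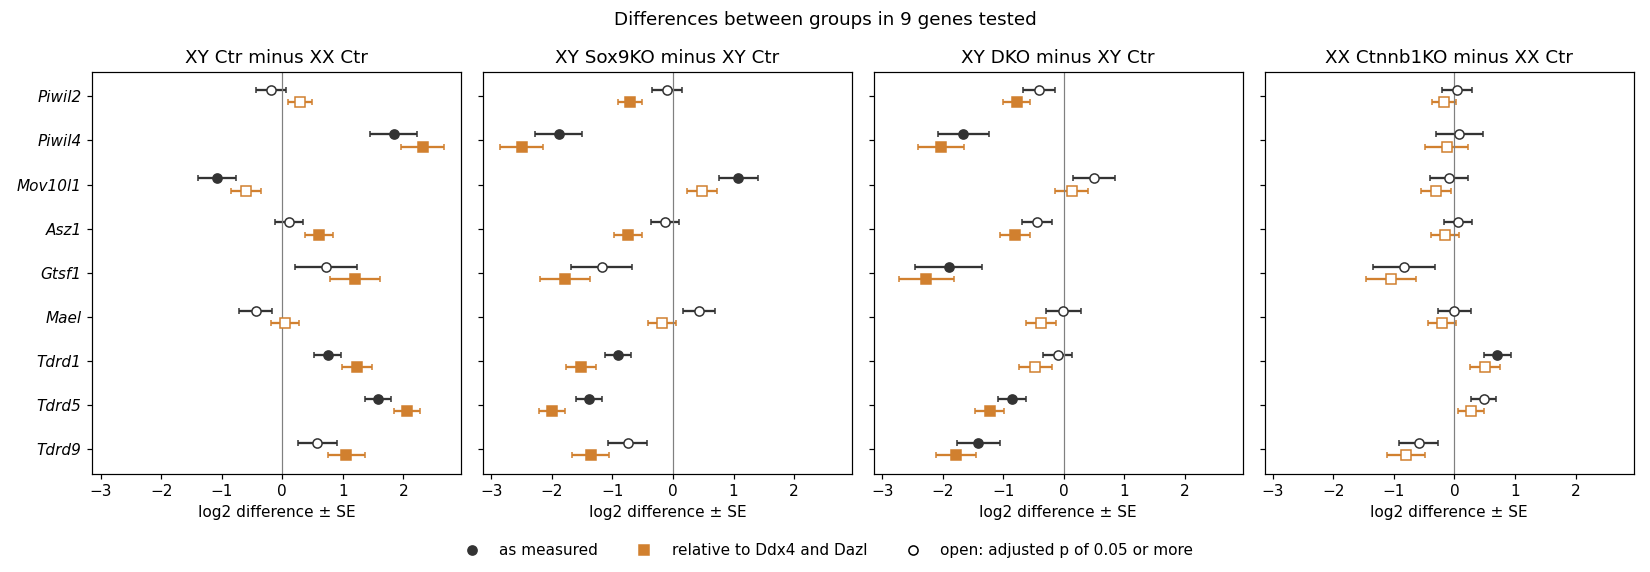
Log2 difference ± SE (x axis) of the 9 genes tested (y axis) in 4 comparisons, as measured (circles) and relative to the mean of Ddx4 and Dazl (squares), with open symbols where the adjusted p was 0.05 or more. In the XY DKO panel Tdrd1 sits at -0.10 while Piwil4, Tdrd5, Tdrd9 and Gtsf1 lie between -0.85 and -1.90, and squares lie to the left of circles in both XY mutant panels.

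The third comparison adds loss of Ctnnb1 to that of Sox9 in XY gonads. In XY DKO, 4 of 9 genes were lower than in XY Ctr and 0 higher, where 17.2% of all genes were called (7.6% lower and 9.62% higher), and the median was -0.44 against 0.04 for all genes. The 4 were Piwil4, Tdrd5, Tdrd9 and Gtsf1. Tdrd1, which fell in XY Sox9KO, differed from XY Ctr by -0.10 (95% confidence interval -0.59 to 0.38). Piwil2 (-0.41, -0.96 to 0.13), Mov10l1 (0.50, -0.20 to 1.20), Asz1 (-0.44, -0.96 to 0.08) and Mael (-0.01, -0.61 to 0.58) were not called either.

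Piwil4 was at 298.9, 365.1 and 213.5 in XY DKO, and 1 of these arrays exceeded XY Ctr replicate 2. It fell by 1.66 ± 0.42 (SE, adjusted p = 0.00535), but the mean of both its probe sets gave -0.90 with an adjusted p of 0.0912. On a scale where XX Ctr is 0% and XY Ctr 100%, XY DKO stood at 9.7 ± 20.1% (SD, n = 3). The control arrays spread on it too, with an SD of 15.7% in XX Ctr and 53.2% in XY Ctr (n = 4 each). Mov10l1, placed in the same way, stood at 53.6 ± 74.5% in XY DKO (SD, n = 3). Tdrd5 was at 353, 352.8 and 184.3, all below XY Ctr, and fell by 0.85 ± 0.23 (SE, adjusted p = 0.00806). It stood at 45.8 ± 32.3% (SD, n = 3) on that scale, and without XY DKO replicate 4 its fall was 0.56 and no longer called (adjusted p = 0.0981).

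Tdrd9 was at 163.2, 194.2 and 88, below XY Ctr apart from its replicate 2, and fell by 1.41 ± 0.35 (SE, adjusted p = 0.00407). Gtsf1 was at 149.8, 256.6 and 75, again with overlap only through XY Ctr replicate 2, and fell by 1.90 ± 0.55 (SE, adjusted p = 0.0143). That call was lost without XY Ctr replicate 4 (-1.62, adjusted p = 0.0535) and without XY DKO replicate 4 (-1.49, adjusted p = 0.0888). The other Gtsf1 probe set gave -1.79 in the same comparison. XY DKO replicate 4 was the lowest of its group in all 10 genes, and its mean log2 signal of Ddx4 and Dazl was 10.82 against 11.63 and 11.91 on the other XY DKO arrays. Without it 2 genes, Piwil4 (-1.46, adjusted p = 0.0324) and Tdrd9 (-1.11, adjusted p = 0.0419), were called. Markers of other cells moved with this group too. Relative to XY Ctr, 8 of 8 Sertoli markers were lower (mean log2 signal 7.67 to 7.95 per array against 10.43 to 10.63), as were 5 of 5 fetal Leydig markers (11.26 to 11.52 against 12.58 to 12.75). Of the pregranulosa markers 6 of 7 were higher (8.70 to 8.97 against 7.19 to 7.28), and of the macrophage markers 5 of 6 (9.04 to 9.47 against 8.21 to 8.42). The part of these lists in the values of the piRNA genes was not tested.

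Set against XY Sox9KO, where 21.8% of all genes were called and 11.1% were higher, XY DKO differed in 1 gene. Tdrd1 was at 277.1, 346.5 and 170.2 in XY DKO, above all 4 XY Sox9KO arrays, and was higher by 0.81 ± 0.24 (SE, adjusted p = 0.0133), or 1.75-fold. Leaving out XY DKO replicate 2 (0.75, adjusted p = 0.0531) or replicate 3 (0.60, adjusted p = 0.108) ended that call, as did scaling to the pan-germ cell genes (0.66, adjusted p = 0.296), while leaving out replicate 4 gave 2 genes, Tdrd1 and Tdrd5. Scaling to Ddx4 and Dazl also gave these 2 as higher, beside 5.21% of all genes. For Piwil4 the difference between XY DKO and XY Sox9KO was 0.23, with a 95% confidence interval from -0.63 to 1.09. The other differences not called were 0.53 for Tdrd5 and from -0.72 for Gtsf1 to -0.31 for Piwil2 and Asz1, with Tdrd9 (-0.66), Mov10l1 (-0.58) and Mael (-0.44) between. Set against XY Ctnnb1KO, where 14% of all genes were called and 6.31% were lower, Piwil4 (-1.46 ± 0.42, adjusted p = 0.0166), Tdrd5 (-0.74 ± 0.23, adjusted p = 0.0259) and Gtsf1 (-1.63 ± 0.55, adjusted p = 0.0433) were lower in XY DKO, with errors in SE. Tdrd9 (-0.96, adjusted p = 0.0616), Asz1 (-0.35), Piwil2 (-0.07), Mael (0.14), Tdrd1 (0.19) and Mov10l1 (0.51) were not called. All 3 calls were lost without XY Ctnnb1KO replicate 3 (adjusted p of 0.0867, 0.105 and 0.176) or without XY DKO replicate 4 (0.0722, 0.209 and 0.181), and that of Gtsf1 also without XY Ctnnb1KO replicate 4 (0.0797) or XY DKO replicate 2 (0.0949). Quantile normalization ended the calls of Tdrd5 (0.0515) and Gtsf1 (0.0615), and the mean of both probe sets that of Piwil4 (-0.96, adjusted p = 0.08). Relative to Ddx4 and Dazl, 5 genes were lower, these 3 with Tdrd9 and Asz1, beside 8.83% of all genes. Between XY DKO and XX DKO, which differ in karyotype, 0 of 9 genes were called by limma and 0 had an unadjusted p under 0.05, where 5.22% of all genes were called. The differences ran from -0.54 for Mov10l1 and -0.51 for Piwil2 to 0.36 for Tdrd5, with Tdrd9 (-0.45), Mael (-0.40), Gtsf1 (-0.20), Asz1 (0.07), Tdrd1 (0.11) and Piwil4 (0.23) between.

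In XX gonads the comparison of interest is loss of Ctnnb1, since WNT signalling through beta-catenin is the ovarian pathway. Tdrd1 was the 1 gene of 9 that passed, where 10.1% of all genes were called and 4.81% were higher. Its signals were 306.8, 200.4, 304.4 and 266.5 in XX Ctnnb1KO, above every XX Ctr array, and it rose by 0.71 ± 0.22 (SE, adjusted p = 0.0336), or 1.63-fold. The call did not hold without XX Ctnnb1KO replicate 4, the library that lacks Xist (0.71, adjusted p = 0.0692), without XX Ctnnb1KO replicate 1 (adjusted p = 0.105) or 3 (0.0982), without XX Ctr replicate 1 (0.0606) or 2 (0.109), with no filter on low signals (0.0503), or relative to Ddx4 and Dazl (0.50, adjusted p = 0.461) or the pan-germ cell genes (0.47, adjusted p = 0.632). In XX DKO, Tdrd1 was at 221.7, 192.5, 297.6 and 235.8, again above every XX Ctr array, with a difference of 0.53 ± 0.22 (SE, adjusted p = 0.11). Macrophage markers were higher in both groups, 4 of 6 in XX Ctnnb1KO (mean log2 signal 8.82 to 9.31 per array against 8.08 to 8.63 in XX Ctr) and 5 of 6 in XX DKO (8.97 to 9.42). Of 7 pregranulosa markers 6 were lower and 1 higher in each. The list mean was 10.52 to 10.65 in XX Ctr, 9.19 to 9.27 in XX Ctnnb1KO and 9.14 to 9.35 in XX DKO. Of 5 fetal Leydig markers 4 were higher and 1 lower in each. Their mean was 7.10 to 7.28 in XX Ctr, 8.53 to 9.60 in XX Ctnnb1KO and 8.86 to 9.36 in XX DKO. Of 8 Sertoli markers 3 were higher and 1 lower in XX Ctnnb1KO, and 3 higher and 2 lower in XX DKO. The part of these lists in the Tdrd1 values was not tested.

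No other gene of the set was called in an XX mutant. Piwil4 stayed between 148.4 and 350 in XX Ctnnb1KO and between 226.2 and 268 in XX DKO. Its differences from XX Ctr were 0.08 (95% confidence interval -0.72 to 0.87) and -0.05 (-0.85 to 0.74). These intervals leave out a rise of the size seen in XY Ctr with the same probe set. The dim Piwil4 probe set gave 0.55 ± 0.38 and -0.12 ± 0.38 (SE), against 0.43 ± 0.38 (SE) in XY Ctr, so this holds for the brighter probe set only. Tdrd5 was at 0.48 (0.05 to 0.91) and 0.36 (-0.07 to 0.79), with adjusted p of 0.17 and 0.286. In XX Ctnnb1KO the others were Gtsf1 (-0.84), Tdrd9 (-0.59, adjusted p = 0.311, with arrays that did not overlap), Mov10l1 (-0.09), Mael (0), Piwil2 (0.04) and Asz1 (0.06). In XX DKO they were Gtsf1 (-0.98), Asz1 (-0.40, adjusted p = 0.293, also without overlap), Tdrd9 (-0.38), Piwil2 (-0.10), Mael (-0.06) and Mov10l1 (-0.04). In XX DKO against XX Ctr, 0 of 9 genes were called by limma where 12.9% of all genes were, and 1, Tdrd1, had an unadjusted p under 0.05. In XX Sox9KO against XX Ctr, limma called 0 of 9 genes and 0% of all genes, while 537 of all genes reached an unadjusted p below 0.05, 1 of them in the set, Piwil4 (-0.82, adjusted p = 0.986). The others ran from -0.39 for Asz1 to -0.01 for Mov10l1, with Gtsf1 (-0.38), Piwil2 (-0.36), Tdrd5 (-0.35), Tdrd1 (-0.23), Tdrd9 (-0.22) and Mael (-0.11) between. XX DKO against XX Ctnnb1KO gave 0 of 9 and 0% of all genes, with 0 of the set below an unadjusted p of 0.05 and 966 of all genes. Those differences ran from -0.46 for Asz1 to 0.21 for Tdrd9, and Piwil2, Piwil4, Tdrd1, Tdrd5, Mov10l1, Gtsf1 and Mael lay between -0.17 and 0.04.

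Loss of Ctnnb1 alone in XY gonads left the set without a call. Limma called 0 of 9 genes and 0.0679% of all genes in XY Ctnnb1KO against XY Ctr, and 0 of the set had an unadjusted p under 0.05. Piwil4 was at 511.5, 467.9, 1950.7 and 925.7 there, a wider spread than its difference of -0.20 (95% confidence interval -0.99 to 0.59). Tdrd5 was at 406.3, 430.6, 688.6 and 461.8, with a difference of -0.12 (-0.54 to 0.31). The others ran from -0.45 for Tdrd9 to -0.01 for Mov10l1, with Piwil2 (-0.34), Tdrd1 (-0.30), Gtsf1 (-0.27), Mael (-0.16) and Asz1 (-0.09) between. Replicate 3 was the highest of the 4 XY Ctnnb1KO arrays in all 10 genes.

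Whether these responses depend on sex or on the other gene was tested by interaction. The effect of Sox9 loss differed between XY and XX gonads for Tdrd5 by -1.04 ± 0.30 (SE, adjusted p = 0.0105), the 1 gene of 9 called where 23.3% of all genes were. For Piwil4 the same term was -1.07 ± 0.55 (SE, adjusted p = 0.169) and for Mov10l1 1.10 ± 0.45 (SE, adjusted p = 0.077). Gtsf1 (-0.79), Tdrd1 (-0.68), Tdrd9 (-0.53), Asz1 (0.25), Piwil2 (0.27) and Mael (0.54) were not called. Leaving out XX Sox9KO replicate 1 or XY Sox9KO replicate 2 added Mov10l1, and leaving out XY Ctr replicate 2 added Piwil4, giving 2 genes each time. Relative to Ddx4 and Dazl 5 genes were called for this term, beside 41.8% of all genes, and relative to the pan-germ cell genes 3, beside 23.7%. The effect of Ctnnb1 loss differed between the sexes for 0 of 9 genes by limma, where 4.19% of all genes were called, and 1, Tdrd1 (-1.01 ± 0.31, SE, adjusted p = 0.0623), had an unadjusted p under 0.05. The other terms ran from -0.60 for Tdrd5 to 0.57 for Gtsf1, with Piwil2, Piwil4, Tdrd9, Mov10l1, Asz1 and Mael between. Tdrd1 was called there without XX Ctnnb1KO replicate 2, XY Ctr replicate 2 or XY Ctnnb1KO replicate 3. Within XY gonads the effect of Ctnnb1 loss depended on Sox9 for Tdrd1, by 1.11 ± 0.32 (SE, adjusted p = 0.0239), again 1 of 9 where 9.74% of all genes were called. The other terms ran from -0.57 for Mov10l1 to 0.65 for Tdrd5, with Piwil2, Piwil4, Tdrd9, Asz1, Gtsf1 and Mael between. That call was lost without XY Ctr replicate 3, XY Ctnnb1KO replicate 1 or 2, or XY DKO replicate 2 or 3 (adjusted p from 0.0577 to 0.0971), and relative to Ddx4 and Dazl (1.25, adjusted p = 0.0627) or the pan-germ cell genes (0.92, adjusted p = 0.525). Leaving out XY DKO replicate 4 gave 2 genes, Tdrd1 and Tdrd5.

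The order of the group means separates the genes. For Piwil4 it ran XY Ctr (1086.4), XY Ctnnb1KO (964), XY DKO (292.5), XX Ctnnb1KO (278.8), XY Sox9KO (255), XX Ctr (254.8), XX DKO (241.9) and XX Sox9KO (143.9). Neighbours in this order overlapped array by array except XY Ctnnb1KO over XY DKO and XX DKO over XX Sox9KO. Tdrd5 began with the same 3 groups (539.8, 496.8 and 296.7), went on with XX Ctnnb1KO (239.9), XX DKO (219.6), XY Sox9KO (195.7) and XX Ctr (170.2), and ended with XX Sox9KO (129.1). There too XY Ctnnb1KO lay wholly above XY DKO, and the other neighbours overlapped. Tdrd1 placed XX Ctnnb1KO (269.5) and XY DKO (264.6) next to XY Ctr (280.7), then XX DKO (236.9) and XY Ctnnb1KO (235.1), and XX Ctr (157.6), XY Sox9KO (139.4) and XX Sox9KO (132.4) last, with overlap at every step.

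Gtsf1 and Tdrd9 shared their ends. Gtsf1 ran from XY Ctr (678.8) and XY Ctnnb1KO (618.6) through XX Ctr (356.7), XX Sox9KO (274.5), XY Sox9KO (265), XX Ctnnb1KO (208.9) and XX DKO (204.2) down to XY DKO (160.5). Tdrd9 ran from XY Ctr (457.9) and XY Ctnnb1KO (310.7) through XX Ctr (269.4), XY Sox9KO (239.3), XX Sox9KO (226), XX DKO (207.3) and XX Ctnnb1KO (173.9) down to XY DKO (148.5). All neighbours overlapped in both genes. Mov10l1 had its 5 highest means, from 905.1 to 970.9, in the 4 XX groups and XY Sox9KO, with XY DKO at 677.1 and XY Ctnnb1KO and XY Ctr at 445.6 and 438.9, again with overlap between neighbours. Piwil2 (group means 1520.6 to 2238.4), Asz1 (457 to 673.6) and Mael (1868.8 to 2721.7) passed in none of the 15 comparisons.

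Dnmt3l could not be tested with the others, since its probe set was above its array's median on 1 array. In XY Ctr it was at 116.3, 20.1, 90.1 and 165.9, and the highest array of any XX group or of XY Sox9KO or XY DKO was at 82.9. XY Ctnnb1KO spread from 5.9 to 113.3, so the 3 highest arrays were 2 of XY Ctr and 1 of XY Ctnnb1KO, and XY Ctr replicate 2 was again the lowest of its group. With no filter, so that all named genes were fitted, its difference was 1.12 ± 0.53 (SE, adjusted p = 0.126) between the controls, -1.41 ± 0.53 (SE, adjusted p = 0.0465) for XY Sox9KO against XY Ctr and -1.35 ± 0.58 (SE, adjusted p = 0.136) for XY DKO against XY Ctr. These low signals leave its fold changes understated.

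Germ cell markers differ between the groups, so the comparisons were repeated with each array set to the mean of Ddx4 and Dazl. This moved every gene by 0.49 for XY Ctr against XX Ctr, -0.61 for XY Sox9KO against XY Ctr and -0.37 for XY DKO against XY Ctr, to medians of all genes of 0.47, -0.56 and -0.33, and values below are to be read beside those shifts. Between the controls 6 of 9 genes were then higher in XY Ctr and 0 lower, beside 37.2% of all genes higher and 3.52% lower: Piwil4 (2.32), Tdrd5 (2.06), Tdrd1 (1.24), Gtsf1 (1.20), Tdrd9 (1.06) and Asz1 (0.60). Piwil2 and Mael changed sign, to 0.29 and 0.05, and were not called on either scale. In XY Sox9KO 7 of 9 were lower than in XY Ctr, beside 50.9% of all genes lower, from Piwil4 (-2.50) to Piwil2 (-0.71), and Mov10l1 and Mael (-0.18, of opposite sign to its 0.43 as measured) were not called. In XY DKO 6 of 9 were lower, beside 5.85% of all genes.

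The 12 pan-germ cell genes gave a second reference, which moved every gene by 0.27, -0.27 and -0.42 in those comparisons. With it 3 genes were higher in XY Ctr than in XX Ctr, beside 10.9% of all genes, 4 lower in XY Sox9KO than in XY Ctr, beside 9.71%, and 4 lower in XY DKO than in XY Ctr, beside 5%. The references themselves hold genes that differed between the control gonads: Rhox6 was lower by 3.31 and Dppa3 higher by 1.05 in XY Ctr than in XX Ctr. Ddx4, an RNA helicase of the germ granule, is also a piRNA gene.

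A list of 24 genes drawn up for the rest of the piRNA pathway, of which 17 could be tested, was counted in the same way. It was drawn broadly and includes Mov10, Tdrd3, Hsp90aa1 and Fkbp4. Whole gonads do not show which cells expressed the listed genes. Between the controls 7 of 17 were lower in XY Ctr and 2 higher, with a median of -0.26, where 19.8% of all genes were lower and 18% higher with a median of -0.02. Among them Tex15, which acts with MIWI2 in transposon methylation, was lower by 1.80 ± 0.36 (SE, adjusted p = 0.000183), and the Tudor genes Tdrkh and Rnf17 by 1.12 ± 0.26 (SE, adjusted p = 0.000851) and 0.97 ± 0.18 (SE, adjusted p = 7.87e-05). In XY Sox9KO 8 of 17 were higher than in XY Ctr and 1 lower, with a median of 0.29, where 22.7% of all genes were higher and 16% lower with a median of 0.05. The lower one was Tdrd12 (-1.0 ± 0.28, SE, adjusted p = 0.00454), a partner in secondary piRNA production. These values are as measured. Setting arrays to Ddx4 and Dazl moves every gene by 0.49 between the controls and by -0.61 in XY Sox9KO against XY Ctr. Those shifts are larger than the 2 list medians and opposite to them in sign, and no count of the list on that scale is given. In XY DKO 1 of 17 differed from XY Ctr, Ddx4 (0.61 ± 0.19, SE, adjusted p = 0.0286), where 17.2% of all genes were called and 9.62% were higher. Against XY Sox9KO 3 of 17 were lower and 0 higher, where 21.8% of all genes were called and 11.1% were higher. The 3 were Mov10, Tex15 (-1.16) and Btbd18 (-0.77).

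Of 20 other genes of DNA methylation and demethylation that could be tested, from a list of 22, 5 were higher and 3 lower in XY Ctr than in XX Ctr, 8 in all, a share near the 37.8% of all genes called. Morc1, which silences transposons in male germ cells, had signals of 264.7, 91.8, 286.9 and 319.6 in XY Ctr and of 31 to 102 in XX Ctr. It was higher by 1.78 ± 0.42 (SE, adjusted p = 0.00106), and it fell by 2.18 ± 0.42 in XY Sox9KO (SE, adjusted p = 0.000111) and fell by 2.59 ± 0.45 in XY DKO (SE, adjusted p = 9.26e-05). As for Piwil4, its 2 highest group means were those of XY Ctr and XY Ctnnb1KO (240.8 and 194.4), and XY Ctr replicate 2 was the lowest of its group. Hells, a chromatin remodeller needed for DNA methylation, ran the opposite way, at -1.20 ± 0.14 between the controls (SE, adjusted p = 3.5e-08), 0.95 ± 0.14 in XY Sox9KO (SE, adjusted p = 2.32e-06) and 0.74 ± 0.15 in XY DKO (SE, adjusted p = 0.000596). Dnmt3a, the methyltransferase that DNMT3L assists, fell by 0.49 ± 0.09 in XY DKO (SE, adjusted p = 0.000321). Dnmt3b had means of 501.1 in XY Ctr and 562.5 in XY DKO. Tet1, a demethylation enzyme, was higher in XY DKO than in XY Sox9KO by 1.10 ± 0.20 (SE, adjusted p = 0.000146). The list as a whole was mixed. Against XY Ctr, 3 of 20 were higher and 4 lower in XY Sox9KO, where 38.7% of all genes were called. In XY DKO 4 were higher and 3 lower, where 17.2% were called. Between XY DKO and XY Sox9KO 2 were higher and 2 lower, where 21.8% were called.

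The genes can be set beside a list of genes linked to male germ cell fate. Whole gonads were measured, so these values do not show which cells expressed the listed genes, Cyp26b1 among them. The 5 listed genes of fetal male germ cell signalling that could be tested include Lefty2, an inhibitor of Nodal signalling, which was at 1450 to 1855.9 in XY Ctr, 64.2 to 90.2 in XX Ctr and 62.4 to 92.2 in XY Sox9KO. All 5 were higher in XY Ctr than in XX Ctr and lower in XY Sox9KO than in XY Ctr. Lefty2 was also at 1679.9 to 2506.3 in XX Ctnnb1KO, 1940.8 to 2606.7 in XX DKO and 1554.3 to 2796.6 in XY DKO. The list as a whole was more mixed, with 3 of 5 higher than in XX Ctr in both XX Ctnnb1KO and XX DKO (Lefty2, Lefty1 and Nodal). Cyp26b1, the enzyme that degrades retinoic acid, was at 0.43 in XX Ctnnb1KO (adjusted p = 0.215), and Tdgf1, a Nodal co-receptor, at 0.55 in XX DKO (adjusted p = 0.349). In XY DKO, Lefty1 and Nodal were higher than in XY Ctr and Cyp26b1 was lower (-1.72, adjusted p = 6.2e-07). In XX Ctnnb1KO, XX DKO and XY DKO, Piwil4 did not exceed 365.1 and Morc1 did not exceed 65.1, while 3 of 4 XY Ctr arrays were above those values for Piwil4 and all 4 for Morc1. Tdrd1, in contrast, had its 5 highest group means in the 5 groups where Lefty2 was high, which include XY Ctnnb1KO (Lefty2 1239.5 to 1817). For Piwil4 this holds for the brighter probe set only. The dim one differed from XX Ctr by 0.55 ± 0.38 in XX Ctnnb1KO and by 0.43 ± 0.38 in XY Ctr (SE). Meiosis genes, the mark of female germ cells, were lower in XY Ctr than in XX Ctr in 14 of 14 cases, higher in XY Sox9KO than in XY Ctr in 14 and higher in XY DKO than in XY Ctr in 8. Their mean log2 signal was 8.88 to 10.23 on the XY DKO arrays, between the ranges of XY Ctr (8.32 to 8.47) and XY Sox9KO (10.53 to 11.27).

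**Figure D3:**
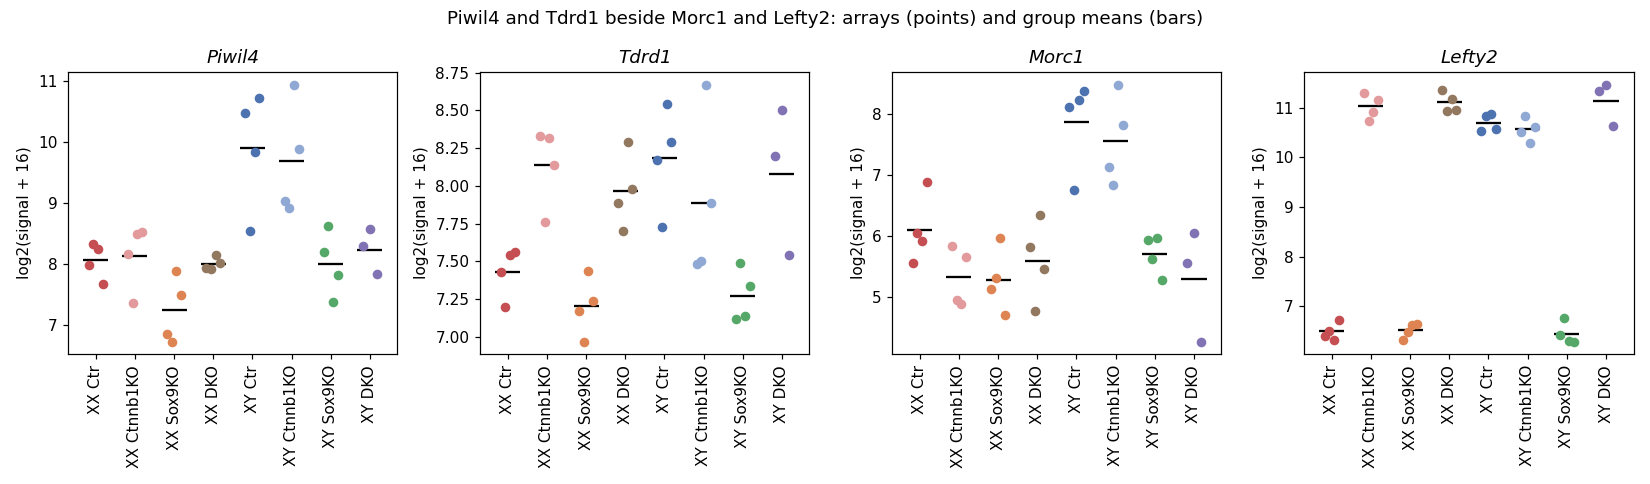
Log2(signal + 16) (y axis) of Piwil4, Tdrd1, Morc1 and Lefty2 on each array (points) of the 8 groups (x axis), with group means as bars. Lefty2 is high in 5 groups, XX Ctnnb1KO, XX DKO, XY Ctr, XY Ctnnb1KO and XY DKO, whereas Piwil4 and Morc1 are high in XY Ctr and XY Ctnnb1KO. Piwil4 is drawn from its brighter probe set.

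Within groups the 10 genes varied together. Deviations from the group means over 31 arrays gave 45 pairs of genes with Pearson r from 0.21 to 0.93 and a median of 0.63, and 32 pairs were above 0.5. No such values are given for pairs of other genes, so they do not set these 10 genes apart. They also include the arrays that lay at the end of their group in all 10 genes. The genes of an array share its germ cell content and its amplification, and relative to Ddx4 and Dazl the median was 0.49, with a range from 0.02 to 0.91. Mov10l1 and Mael had the highest r (0.93), followed by Gtsf1 and Mael (0.90), Tdrd9 and Gtsf1 (0.88) and Piwil2 and Tdrd1 (0.88). Piwil4 and Mov10l1 had the lowest (0.21). The spread within groups differed among the genes too, from an SD of 0.31 on the log2 scale for Tdrd5 to 0.80 for Gtsf1 and 0.83 for Dnmt3l.

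Single arrays stood at the end of their group in every gene. XY Ctr replicate 2 was the lowest of its group in all 10 genes, although its mean log2 signal of Ddx4 and Dazl (11.19) was within the range of the other XY Ctr arrays (10.86 to 11.23). XY Ctnnb1KO replicate 3, the highest of its group in all 10 genes, also had the highest Ddx4 and Dazl of its group (11.35).

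**Figure D4:**
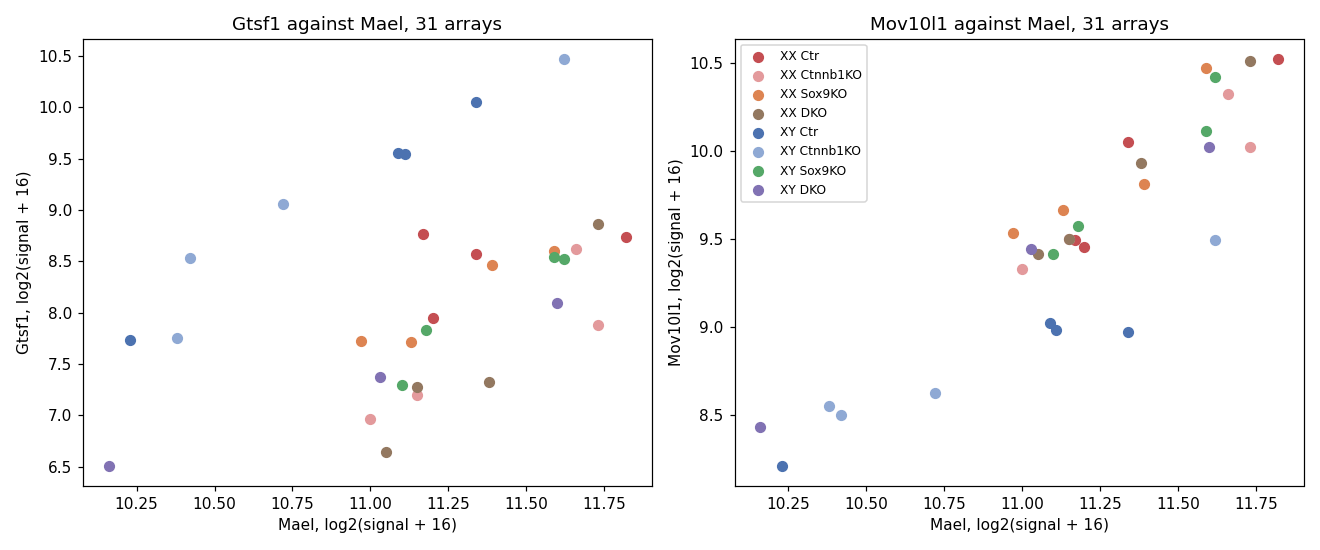
Log2(signal + 16) of Gtsf1 (left) and Mov10l1 (right) against that of Mael (x axis) on the 31 arrays, coloured by group. Gtsf1 and Mael go together within the groups (r = 0.90 from group means), but over all arrays their r is 0.39: XY Ctr replicate 1, at 11.09 for Mael, has 9.56 for Gtsf1, and XX Ctr replicate 1, at 11.17, has 8.77. Mov10l1 and Mael have an r of 0.91 over all arrays.

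Over all 31 arrays, the genes whose log2 signals ran most like each member were sought among 11776 other genes. These values are descriptions, as the arrays share groups and cell content. Piwil4 was most like Mbl2 (Pearson r = 0.90), Insig1 (0.88) and 1700019A02Rik (0.88). Tdrd5 was most like Rab3b (0.93), Ptgds (0.91) and Enc1 (0.91), of which Ptgds is a Sertoli cell marker. Mov10l1 was most like Tex30 (0.95), Stk31 (0.95) and Dock3 (0.94), and Mael like Stk31 (0.91), Btbd18 (0.86) and Dock3 (0.85). Tdrd9 and Gtsf1 shared Brdt (0.85 and 0.82) and Nxf2 (0.79 and 0.83), both known as germ cell genes. Tdrd1 was most like Maco1, Mad2l1 and Wdr3 (0.85 each). Asz1, Piwil2 and Dnmt3l had no neighbour above 0.77.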

How the data were processed

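RNA of 31 pairs of gonads was measured on single-colour arrays. Per the labels' protocols, 40 ng of total RNA was amplified and labelled with biotin for each. The authors deposited linear signal intensity per probe set, which the submitters' processing notes credit to MAS5 (its version and parameters: not given in the sources used here). Leaving out 2% at each end, every array has a mean of 500, and array medians run from 120.3 to 168.3. Precision rests on how many arrays a group has.

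Of 45101 probe sets, 64 controls were left out, and 34945 have 1 gene symbol in the platform annotation, 932 several and 9160 none. Entrez identifiers matched 34741 of them to a RefSeq table and changed 0 symbols. Each gene was read from its probe set of highest mean. Fold changes are on the log2(signal + 16) scale and thus understate those of low signals. A gene was kept where its signal was above its own array's median on at least 3 arrays, which left 11785 of 18193.

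All arrays entered 1 limma fit (version 3.58.1, R 4.3.3) of 8 group means with a trended prior (residual degrees of freedom 23, median of the prior 6.69). Benjamini-Hochberg adjustment ran over all kept genes within each of 15 comparisons and 0.05 was the threshold for a call. For germ cell scaling, the mean log2 signal of Ddx4 and Dazl, or of 12 pan-germ cell genes, was subtracted on each array. Replicates are separate pairs of gonads.

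By rule the text covers all 10 genes in each comparison (Dnmt3l, not in the fit, in 1 paragraph), up to 4 genes of each other list by adjusted p, genes that check the labels, and the 3 genes most correlated with each member. The genes, lists and tests were chosen with earlier results of these data known, so none counts as independent evidence. Other settings were pseudocounts of 1 and 64, quantile normalization, no filter, the mean of a gene's probe sets, the arrays of a comparison alone, the replicate number as a block, both germ cell scalings, and each array left out in turn.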

Additional observations from a re-analysis of the deposited data

Results flagged for a closer look

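Of 70 groups of 4 arrays examined over the 10 genes, 5 held 1 array that stood apart from the other 3 by Dixon's test at its 95% critical value, and chance alone gives about 1 in 20. Tdrd9 was at 146.1 in XY Ctr replicate 2, against 494.6 to 629.6 on the other XY Ctr arrays. Mov10l1 was at 279.8 on the same array, against 484.3 to 501.6. Tdrd9 was at 151.2 in XY Sox9KO replicate 2, against 264.2 to 277. Mov10l1 was at 703 in XY Ctnnb1KO replicate 3, against 345.4 to 376.2. Asz1 was at 666 in XX Ctr replicate 3, against 578.6 to 585.3.

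The effect of Sox9 loss on Tdrd5 differed between XY and XX gonads by -1.04 ± 0.30 (SE) on the log2 scale, with an adjusted p of 0.0105 from limma. All 4 XY Sox9KO arrays lay below all 4 XY Ctr arrays, whereas XX Sox9KO and XX Ctr arrays overlapped.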

How the results depend on the processing

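The 19 differences called among the 10 genes were recomputed under other settings and with each array left out, which gave 330 values. In 289 the direction and the call held, in 41 the direction held without the call, and 0 reversed. Counts of genes called changed by over 1.5 times as follows. Quantile normalization gave 1 gene (Piwil4) in place of 3 for XY DKO against XY Ctnnb1KO. With no filter, 0 in place of 1 were called for XX Ctnnb1KO against XX Ctr. A fit to the arrays of a comparison alone gave 1 for XY DKO against XY Ctnnb1KO, 3 in place of 1 for the interaction of sex with Sox9 loss and 0 in place of 1 for that of Ctnnb1 with Sox9 loss in XY. Relative to Ddx4 and Dazl the counts were 7 in place of 4 for XY Sox9KO against XY Ctr, 2 in place of 1 for XY DKO against XY Sox9KO, 5 for XY DKO against XY Ctnnb1KO, 5 for sex by Sox9 loss, and 0 for XX Ctnnb1KO against XX Ctr and for Ctnnb1 by Sox9 loss. Relative to the pan-germ cell genes they were 3 for sex by Sox9 loss, and 0 for XX Ctnnb1KO against XX Ctr, XY DKO against XY Sox9KO and Ctnnb1 by Sox9 loss. The cause of these changes was not tested.

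With each array left out in turn, counts ran from 4 to 5 for XY Ctr against XX Ctr, 0 to 1 for XX Ctnnb1KO against XX Ctr, 4 to 6 for XY Sox9KO against XY Ctr, 2 to 4 for XY DKO against XY Ctr, 0 to 2 for XY DKO against XY Sox9KO and 0 to 4 for XY DKO against XY Ctnnb1KO. They ran from 0 to 1 for sex by Ctnnb1 loss, 1 to 2 for sex by Sox9 loss and 0 to 2 for Ctnnb1 by Sox9 loss. The other comparisons stayed at 0.

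The arrays share replicate numbers but no pairing is stated. Over 105 pairs of arrays with the same number, deviations from the group means correlated from -0.45 to 0.54 with a median of -0.01, and 7 of 31 arrays were most like an array of their own number. With the replicate number as a block, 1 gene (Tdrd1) in place of 0 was called for sex by Ctnnb1 loss, and no other count of the set moved by over 1.5 times.

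Dnmt3l and the dim Piwil4 probe set lie near the low end of the signals, where these arrays measure differences least well. Groups of 3 or 4 arrays give log2 intervals over 2 units wide for Gtsf1 between the control gonads.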
